A study of Mus musculus with 25 samples.

Results

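The genes described here are the mouse tau gene Mapt and 5 other microtubule-associated protein genes (Map1a, Map1b, Map2, Map4 and Map6). The others are Tubb3 (a tubulin), Stmn2 (a stathmin), Gsk3b (a tau kinase) and Cdk5r1 (an activator of the tau kinase Cdk5). All members were chosen by name, and all 10 were found among the 36528 Entrez gene identifiers of the count files. Neurons (NeuN+) and astrocytes (Gfap+) had been sorted from brains of mice aged 6 months that carried the hMAPT-P301S transgene, and from non-transgenic littermates (Non-Tg). The 25 libraries comprised 8 of non-Tg neurons, 6 of P301S neurons, 6 of non-Tg astrocytes and 5 of P301S astrocytes. No allele or treatment common to both genotypes is named in the labels. The promoter that drives the transgene is not stated in the sources used here, nor is the number of animals behind a library. The p-values below therefore measure the spread between these libraries, which may be partly technical, and neuron and astrocyte libraries of the same animal cannot be matched.

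Tau, the product of Mapt, binds along microtubules and is best known from axons, while Map2 is its counterpart in dendrites; both are spliced into isoforms with different numbers of microtubule-binding repeats. In tauopathies tau becomes heavily phosphorylated, leaves the microtubule and aggregates, and P301S is a substitution in a binding repeat that causes inherited frontotemporal dementia. Gsk3b encodes glycogen synthase kinase 3 beta, and Cdk5r1 encodes p35, the neuronal activator of the kinase Cdk5; both kinases phosphorylate tau. The transgene is human, and the deposited counts are of mouse gene models, so Mapt counts in P301S libraries may include reads of the human transgene that also align to the mouse gene; this was not tested. In sorted bulk libraries, fewer cells of a type and less RNA per cell cannot be told apart.

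Upstream sequences of 3 members are shown because they stand for the 3 patterns across cell types described below: Map1b, higher in neurons; Map4, higher in astrocytes; and Gsk3b, not called different. Each is the 250 bases before an annotated start in the RefSeq promoter table (GRCm38.p6), read on the gene's strand, with the TATA-box letters TATAAA, searched on both strands, in capitals. The Map4 sequence lies before an internal start of that gene; the table also holds a start farther upstream.
Map1b, chr13:99516603-99516852, minus strand: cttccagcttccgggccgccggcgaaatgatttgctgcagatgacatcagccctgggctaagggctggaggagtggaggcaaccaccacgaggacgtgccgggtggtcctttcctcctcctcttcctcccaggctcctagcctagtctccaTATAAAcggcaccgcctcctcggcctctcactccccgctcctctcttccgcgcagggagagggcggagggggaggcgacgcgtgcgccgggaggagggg
Gsk3b, chr16:38088751-38089000, plus strand: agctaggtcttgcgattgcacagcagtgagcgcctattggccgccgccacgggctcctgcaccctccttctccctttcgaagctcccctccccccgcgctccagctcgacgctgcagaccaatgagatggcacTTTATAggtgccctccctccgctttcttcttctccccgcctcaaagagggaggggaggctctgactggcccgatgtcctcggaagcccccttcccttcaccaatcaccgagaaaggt
Map4, chr9:110051771-110052020, plus strand: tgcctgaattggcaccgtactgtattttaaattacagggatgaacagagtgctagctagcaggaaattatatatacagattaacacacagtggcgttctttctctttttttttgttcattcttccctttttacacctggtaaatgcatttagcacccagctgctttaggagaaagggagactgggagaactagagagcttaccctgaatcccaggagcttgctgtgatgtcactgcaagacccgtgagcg
The Map1b sequence held 1 TATAAA match, the Gsk3b sequence held 1, on the opposite strand and so written as its reverse complement, and this Map4 sequence held none; 12.4% of the 32851 promoter windows in the table held at least 1. GC content was 66.4% for Map1b, 62.00% for Gsk3b and 43.6% for the internal Map4 start shown, against 74.00% for the Map4 start farther upstream and a median of 52.4% over all windows. A match describes letters in a window and not a site in use. The table held 7 starts for 6 of the 10 members (also Map1a, Map2 and Tubb3); Mapt, Map6, Stmn2 and Cdk5r1 had no entry.

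Levels are given as counts scaled with TMM factors to a library total of 1e+06 (CPM below), on 1 scale for all 25 libraries, and compare libraries for the same gene. Library totals ran from 1.25e+06 to 4.45e+06 counts, so 3 counts, the limit that a count of 0 allows, corresponded to 0.571 to 2.27 CPM; intervals and floors cover counting error only. Summed levels of 14 neuron markers were 2081 to 2600.5 CPM in non-Tg neurons and 2017 to 2376 in P301S neurons, against 209.6 to 365 and 243 to 736 in non-Tg and P301S astrocytes. The 12 astrocyte markers summed to 361 to 765 and 502 to 813 CPM in the 2 neuron groups, against 18223 to 28578 and 15959 to 30188 in the astrocyte groups, and none of either list was at 0 in all libraries of a group. Quality measures overlapped between the astrocyte groups, but P301S astrocytes 2 to 5 had fewer detected genes and a larger mitochondrial share than every non-Tg astrocyte library, with P301S astrocyte 1 inside the non-Tg range on both. At an equal depth of 1e+06 counts the 5 P301S libraries held 11980.0 to 16421 detected genes, against 15116 to 17814 in non-Tg astrocytes, and mitochondrial genes took 3.59 to 11.3% of counts, against 2.26 to 5.55%. TMM factors were 0.535 to 0.967 in P301S astrocytes and 0.864 to 1.007 in non-Tg astrocytes. A lower factor gives a higher CPM for the same count and library total. Non-Tg neuron libraries 5 and 8 carry sample identifiers from another number range than the other 23 libraries; what that range marks is not stated. The labels' protocol reports far lower RNA yields from astrocytes than from neurons.

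Per unit of gene length, Map1b and Map2 led the members in neurons and Map4 and Map2 led in astrocytes. In the authors' size-factor-adjusted RPKM (nRPKM), which allows genes to be compared, Map1b stood at 21.5 ± 4.99 (SD, n = 8) in non-Tg neurons and Map2 at 13.9 ± 1.78. All 8 libraries placed Map1b above Map2 and Map2 above Map1a (4.43 ± 1.66), although the ranges of Map1b and Map2 overlapped between libraries. Below them followed Gsk3b (2.91 ± 0.471), Map4 (2.23 ± 0.150), Map6 (2.20 ± 0.402), Cdk5r1 (1.96 ± 0.771), Mapt (1.41 ± 0.700) and Stmn2 (1.21 ± 0.332), each neighbour overlapping the next in range. Tubb3, the neuronal beta-III tubulin, was lowest at 0.446 ± 0.456. P301S neurons had the same order except that Map6 stood above Map4.

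In non-Tg astrocytes the nRPKM level of Map4 was 6.49 ± 1.36 (SD, n = 6) and that of Map2 6.35 ± 0.813; 3 of 6 libraries had Map4 above Map2, so the pair had no consistent order. Gsk3b (3.50 ± 1.25), Map1b (2.95 ± 0.891) and Map1a (2.89 ± 0.820) followed with overlapping ranges. Mapt came next at 1.08 ± 0.248, below Map1a and above Stmn2 (0.255 ± 0.218) with no overlap on either side. Cdk5r1, Map6 and Tubb3 were at or below 0.245 on average. In P301S astrocytes Map4 (9.63 ± 4.46, n = 5) and Map2 (9.08 ± 2.37) again led without a consistent order, and Mapt was at 2.21 ± 0.830.

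**Figure D1:**
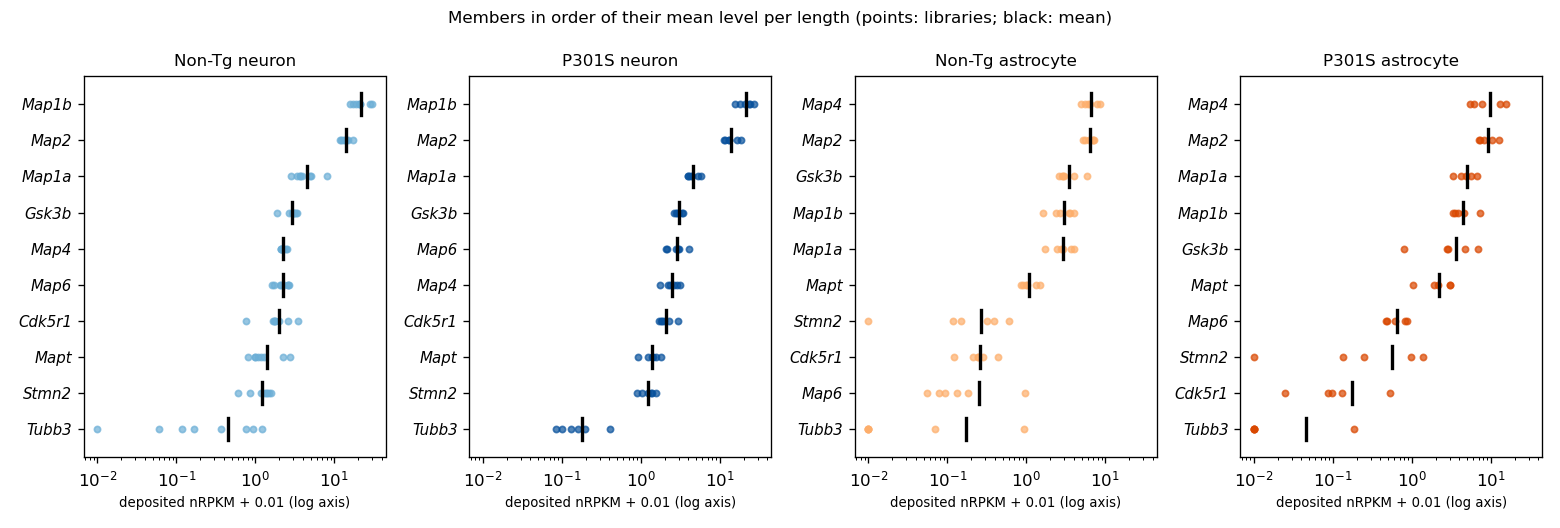
Members ordered by mean nRPKM (authors' length-scaled value plus 0.01, log axis) in each of the 4 groups; points are libraries and black lines group means. Map1b and Map2 head both neuron groups, Map4 and Map2 head both astrocyte groups, and Tubb3 is lowest in all 4.

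Mapt (Entrez 17762, chr11:104229409-104332090, plus strand, GRCm38) was measured at overlapping levels in neurons and astrocytes of non-Tg mice. Its lowest, median and highest CPM were 27.7, 41.00 and 93.9 in non-Tg neurons, 33.4, 51.8 and 67.3 in P301S neurons and 34.03, 41.6 and 59.6 in non-Tg astrocytes, and the 5 P301S astrocyte libraries held 79.4, 41.3, 87.1, 119 and 127. The 2 highest non-Tg neuron libraries were those of the other identifier range, at 93.9 and 84.1 CPM; the other 6 lay between 27.7 and 48.9. All 4 groups overlapped in range, and 4 of the 5 P301S astrocyte libraries were above every non-Tg astrocyte library. The gene overlaps an antisense annotation (Gm11659), and the sources used here do not say whether counting used strand.

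Neurons minus astrocytes, the log2 difference of Mapt was 0.20 (SE 0.29, edgeR adjusted p = 0.611) in non-Tg mice, not called. It was -0.21 (adjusted p = 0.558) without neuron libraries 5 and 8, so the sign turned. In P301S mice Mapt was lower in neurons, with a difference of -0.82 (SE 0.32, edgeR adjusted p = 0.0311), or 1.76-fold higher in astrocytes. That call was lost in each of the 9 other settings tried (values -0.85 to -0.59, adjusted p = 0.0502 to 0.336) and in 9 of the 25 fits without 1 library, among them those without P301S astrocytes 4 (-0.68, adjusted p = 0.0755) and 5 (-0.66, adjusted p = 0.0948) and P301S neuron 6 (-0.65, adjusted p = 0.112). The remaining 6 were those without P301S neurons 1, 2 and 4, non-Tg astrocytes 1 and 2, and non-Tg neuron 7, with adjusted p from 0.0501 to 0.0741.

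Among the other microtubule-associated proteins, Map1b and Map2 were higher in neurons, and Map4, the widely expressed member of the tau and Map2 family, was higher in astrocytes. Map1b (chr13:99421464-99516602, minus strand), which binds microtubules in growing and adult axons, had lowest, median and highest CPM of 1109, 1361 and 2060.4 in non-Tg neurons, 1067, 1493 and 1895 in P301S neurons and 119.7, 232 and 309.7 in non-Tg astrocytes, and 296, 252, 346, 535 and 275 in the P301S astrocytes. Every neuron library was above every astrocyte library of its genotype. The log2 difference was 2.68 (SE 0.22, edgeR adjusted p = 3.96e-12) in non-Tg mice, 6.42-fold, and 2.13 (SE 0.24, edgeR adjusted p = 4.31e-09) in P301S mice, 4.37-fold.

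Map2 (chr1:66175202-66442583, plus strand) was at 735, 823 and 1067 CPM (lowest, median, highest) in non-Tg neurons, 703, 826 and 1161 in P301S neurons and 358, 462 and 494 in non-Tg astrocytes, and the P301S astrocyte libraries held 574, 489, 880.2, 685 and 518. Non-Tg neurons and astrocytes did not overlap, whereas P301S astrocyte library 3 lay within the range of P301S neurons. The difference was 0.94 (SE 0.16, edgeR adjusted p = 7.35e-06) in non-Tg mice and 0.48 (SE 0.17, edgeR adjusted p = 0.0203) in P301S mice. The P301S call was lost in limma voom (0.54, adjusted p = 0.0804), with only P301S libraries fitted (0.45, adjusted p = 0.0876), and without P301S astrocyte 2 (0.42, adjusted p = 0.0530) or 5 (0.43, adjusted p = 0.0506).

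Map4 (chr9:109929841-110083954, plus strand) went the other way. Its CPM values were 117, 129 and 145 (lowest, median, highest) in non-Tg neurons, 106, 149 and 185 in P301S neurons and 315, 409 and 572 in non-Tg astrocytes, and 519.8, 406, 1029, 840.4 and 377 in P301S astrocytes. No neuron library reached the lowest astrocyte library of its genotype. Neurons minus astrocytes, the difference was -1.73 (SE 0.20, edgeR adjusted p = 5.66e-09) in non-Tg mice, 3.31-fold higher in astrocytes, and -2.09 (SE 0.22, edgeR adjusted p = 2.04e-09) in P301S mice, 4.26-fold higher. P301S astrocytes 3 and 4, the 2 highest, also had the highest summed oligodendrocyte markers (1302 and 1072 CPM, against 202 to 532 in non-Tg astrocytes), and without them the P301S difference was -1.48 (adjusted p = 2.14e-07). P301S astrocyte 4 also had the lowest TMM factor of all libraries (0.535), so its CPM values depend strongly on the scaling.

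Map6 (chr7:99266779-99337137, plus strand), the STOP protein that makes microtubules resistant to cold, was higher in neurons. Its CPM was 66.1, 91.9 and 115 (lowest, median, highest) in non-Tg neurons, 86.3, 124 and 177 in P301S neurons and 2.13, 4.86 and 46.8 in non-Tg astrocytes, and the P301S astrocyte libraries held 41.7, 22.7, 28.8, 21.1 and 39.6. Astrocyte library 4 of the non-Tg group was far above its 5 companions, which held at most 8.44 CPM, yet stayed below every neuron library. The difference was 3.02 (SE 0.46, edgeR adjusted p = 1.49e-06) in non-Tg mice, 8.11-fold, and 1.99 (SE 0.48, edgeR adjusted p = 7.52e-04) in P301S mice. Without non-Tg astrocyte 4 the non-Tg difference was 4.28 (SE 0.33). The P301S call was lost with the number of detected genes in the model (2.26, adjusted p = 0.0625).

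Map1a (chr2:121289590-121310832, plus strand), a microtubule-associated protein of mature neurons, was not called different between the cell types. Its CPM was 173, 249.9 and 546 (lowest, median, highest) in non-Tg neurons, 258, 292 and 394 in P301S neurons and 123, 207 and 290.2 in non-Tg astrocytes, and the P301S astrocyte libraries held 363, 244, 488, 404 and 321. All 4 ranges overlapped. The difference, neurons minus astrocytes, was 0.44 (SE 0.22, edgeR adjusted p = 0.103) in non-Tg and -0.23 (SE 0.25, edgeR adjusted p = 0.445) in P301S mice. The non-Tg difference passed the threshold with median-ratio scaling (0.63, adjusted p = 0.0198), in DESeq2, in limma voom, with a filter at 1 CPM, and without non-Tg neuron 5 (0.58, adjusted p = 0.0303) or non-Tg astrocyte 5 (0.56, adjusted p = 0.0489).

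Tubb3 and Stmn2, both widely used as neuronal markers, were measured at low levels even in neurons. Tubb3 (chr8:123411553-123422015, plus strand; it shares sequence with the overlapping gene model Gm20388) ran from 0 to 10.7 CPM in non-Tg neurons, 0.727 to 3.82 in P301S neurons, 0 to 10.04 in non-Tg astrocytes and 0 to 1.89 in P301S astrocytes. At most 3 counts were found in 4 of 8 non-Tg neuron, 4 of 6 P301S neuron, 5 of 6 non-Tg astrocyte and 4 of 5 P301S astrocyte libraries, so its differences were not detectable at this depth. The fitted values, neurons minus astrocytes, were 1.23 (SE 0.94, edgeR adjusted p = 0.304) in non-Tg and 1.81 (SE 1.26, edgeR adjusted p = 0.231) in P301S mice. The latter depended on 1 library: without P301S astrocyte 2, the only one of its group with counts, it passed the threshold (adjusted p = 0.0278).

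Stmn2 (chr3:8509527-8561604, plus strand), which encodes the tubulin-binding growth-cone protein SCG10, was higher in neurons of non-Tg mice. Its CPM was 6.37, 13.1 and 17.1 (lowest, median, highest) in non-Tg neurons, 9.68, 13.7 and 16.7 in P301S neurons and 0, 2.64 and 6.999 in non-Tg astrocytes, and 2.82, 16.4, 1.49, 0 and 11.97 in the P301S astrocytes. P301S astrocytes 2 and 5 reached neuronal levels, whereas the other 3 were at 2.82 or below. The difference was 2.02 (SE 0.61, edgeR adjusted p = 0.00650) in non-Tg mice, 4.05-fold, and 0.98 (SE 0.64, edgeR adjusted p = 0.204) in P301S mice, where it passed the threshold only without P301S astrocyte 2 among the single-library fits (1.64, adjusted p = 0.0393).

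Cdk5r1, which encodes a kinase activator, was higher in neurons, and the kinase gene Gsk3b was not called different. Cdk5r1 (chr11:80477023-80481184, plus strand) had lowest, median and highest CPM of 17.9, 40.3 and 73.1 in non-Tg neurons, 39.7, 43.9 and 68.8 in P301S neurons and 2.96, 5.94 and 10.8 in non-Tg astrocytes, and the P301S astrocyte libraries held 1.97, 2.20, 0.374, 3.02 and 13.8. No astrocyte library reached a neuron library of its genotype. The difference was 2.78 (SE 0.46, edgeR adjusted p = 4.86e-06) in non-Tg mice, 6.86-fold, and 3.48 (SE 0.53, edgeR adjusted p = 1.49e-06) in P301S mice, 11.2-fold. Without P301S astrocyte 5, the highest of its group, the P301S difference was 4.71 (SE 0.50).

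Gsk3b (chr16:38089001-38246084, plus strand) was at 89.9, 141 and 156 CPM (lowest, median, highest) in non-Tg neurons, 127, 142 and 157 in P301S neurons and 133, 159 and 305 in non-Tg astrocytes, and at 149, 356, 246, 148 and 43.4 in P301S astrocytes. The SD was 21.7 CPM in non-Tg and 11.6 in P301S neurons, against 64.5 in non-Tg and 118 in P301S astrocytes. The differences, neurons minus astrocytes, were -0.45 (SE 0.27, edgeR adjusted p = 0.170) and -0.40 (SE 0.30, edgeR adjusted p = 0.267) in non-Tg and P301S mice. The first passed the threshold when only non-Tg libraries were fitted (-0.47, adjusted p = 0.0379) and the second without P301S astrocyte 5 (-0.65, adjusted p = 0.0265).

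**Figure D2:**
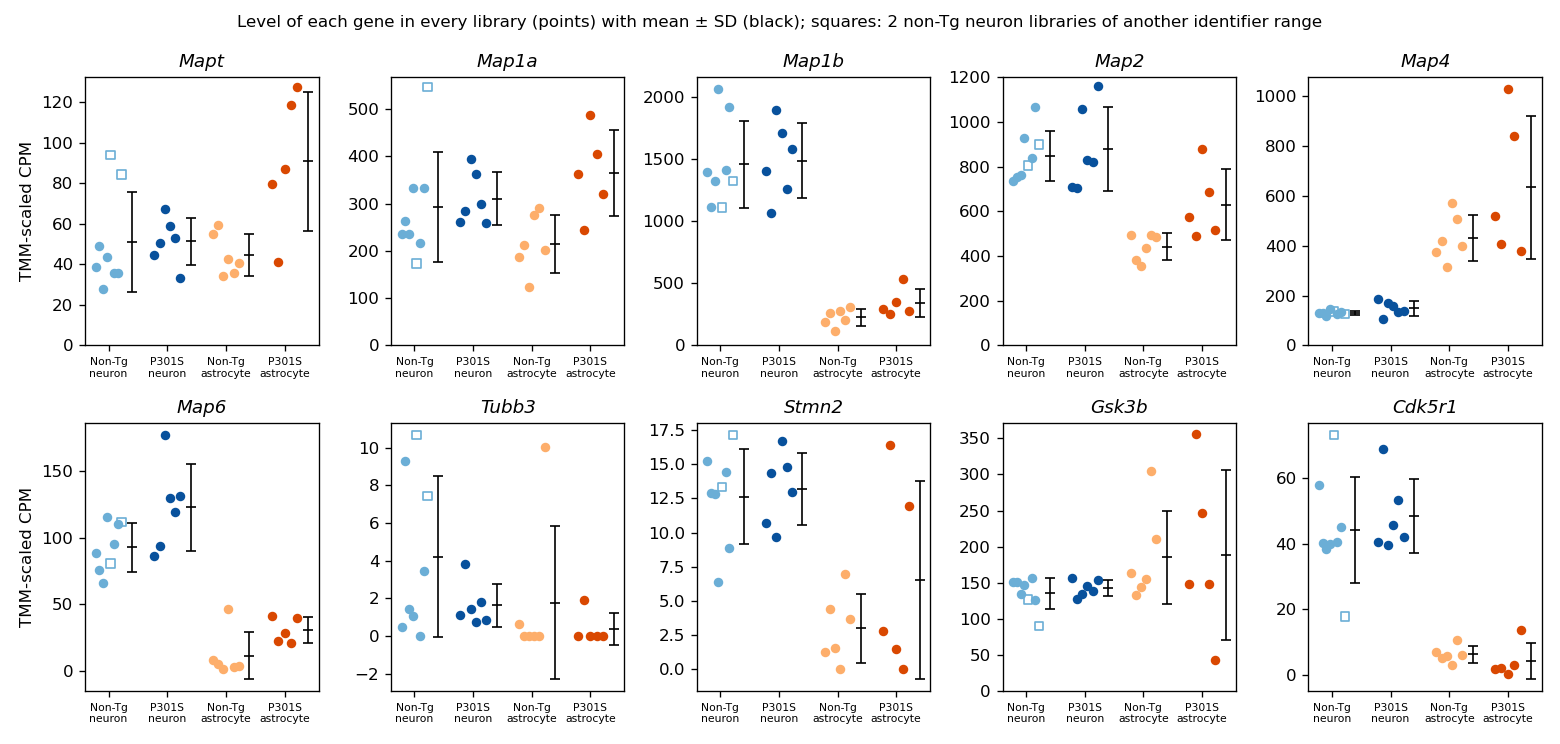
TMM-scaled CPM of the 10 members in each library (points, 1 panel per gene, linear axes that differ between panels), with the mean ± SD of each group in black and neuron libraries 5 and 8 of the non-Tg group, from the other identifier range, as open squares. Map1b, Map6 and Cdk5r1 separate the neuron from the astrocyte groups upward and Map4 downward, while Mapt runs from 27.7 to 127 CPM with all groups overlapping.

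Counted together, 5 of the 10 members were called higher in neurons and 1 lower in non-Tg mice, where 21.8% of the 14197 genes tested were called higher and 25.1% lower. In P301S mice 4 were called higher and 2 lower, against 23.2% and 29% of all genes. The 10 members were chosen by name, with earlier results of these data known, so these shares are given without a test. Of the 2 lower calls in P301S mice, that of Mapt was lost in each of the 9 other settings. The groups did not overlap for Map1b, Map2, Map4, Map6 and Cdk5r1 in non-Tg mice (5 of 10, against 31.2% of genes) and for Map1b, Map4, Map6 and Cdk5r1 in P301S mice (4 of 10, against 29.7%). The median difference over the members was 1.09 in non-Tg and 0.73 in P301S mice, beside medians of -0.11 and -0.21 over all genes; median-ratio scaling moved these all-gene medians to 0.079 and -0.084.

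**Figure D3:**
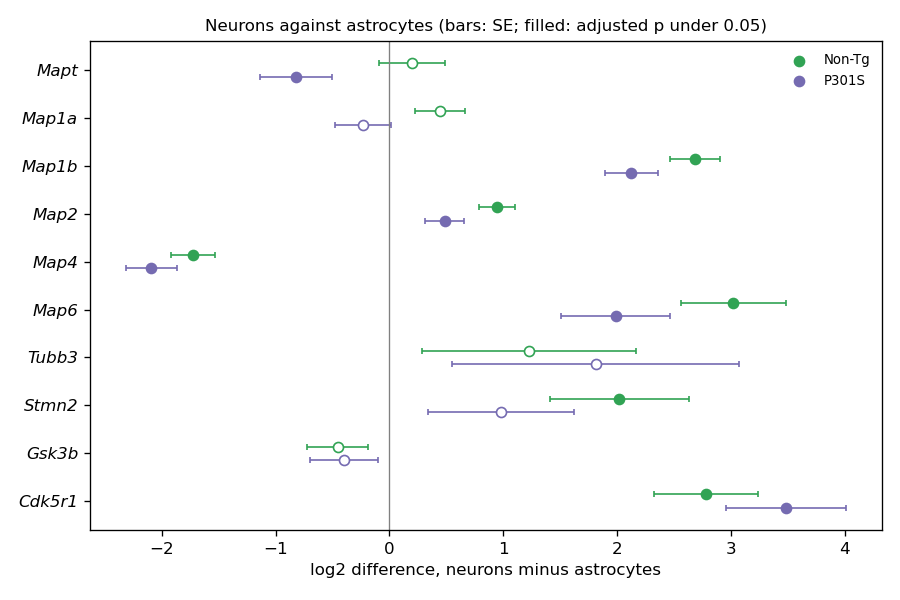
Log2 difference of each member, neurons minus astrocytes, in non-Tg (green) and P301S (purple) mice; bars are SE and filled points passed an adjusted p of 0.05. Map1b, Map2, Map6 and Cdk5r1 lie to the right and Map4 to the left in both genotypes, from -2.09 (Map4, P301S) to 3.48 (Cdk5r1, P301S).

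In neurons no member was called between the genotypes. Of the 9 members tested (Tubb3 fell below the count filter), 0 passed in edgeR, in DESeq2 and in limma voom. In edgeR 0.00913% of all 10951 genes tested were called. An unadjusted edgeR p under 0.05 was found for 1 member and for 846 of all genes. Mapt was at 50.98 ± 24.4 CPM (SD, n = 8) in non-Tg and 51.3 ± 11.7 (n = 6) in P301S neurons, a log2 change of -0.023 (SE 0.26, edgeR adjusted p = 0.989). Without neuron libraries 5 and 8 the non-Tg mean was 38.3 ± 7.31 and the change 0.42 (SE 0.17, adjusted p = 0.288), still not called. Map6 had the smallest unadjusted p, with a change of 0.39 (SE 0.17, edgeR adjusted p = 0.613); 5 of 6 P301S libraries were above the non-Tg mean. For the other 7 the changes ran from 0.021 (Map1b) to 0.19 (Map4), with SEs from 0.13 to 0.23. No member separated the genotypes without overlap, as 0.21% of genes did. The median over the 9 was 0.073, beside -0.024 over all genes.

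In astrocytes, 8 of the 9 members tested had higher fitted levels in P301S mice, as did 8 of the 9 in neurons. The median change over all genes in astrocytes was 0.13. No member was called in astrocytes by edgeR or DESeq2. The count at an unadjusted edgeR p under 0.05 was 4 (Mapt, Map1a, Map1b and Map2), beside 1629 of all 12130 genes tested. Limma voom called 1 member (Map6, 2.63, adjusted p = 0.0142). In edgeR 0.544% of all genes were called. Mapt was at 44.6 ± 10.4 CPM (SD, n = 6) in non-Tg and 90.7 ± 34.2 (n = 5) in P301S astrocytes. Its log2 change was 1.005 (SE 0.37, edgeR adjusted p = 0.224), 2.01-fold, with 4 of 5 P301S libraries above the non-Tg mean. Map1a had means of 215 and 364 CPM in non-Tg and P301S astrocytes, a log2 value of 0.75 (SE 0.26, edgeR adjusted p = 0.192), with 5 of 5 above.

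Values for the remaining astrocyte changes were 0.58 (SE 0.27) for Map1b, 0.50 (SE 0.22) for Map2 and 0.55 (SE 0.27) for Map4. The value for Map6 was 1.39 (SE 0.72, edgeR adjusted p = 0.405); without non-Tg astrocyte 4 the value was 2.68 (adjusted p = 0.0765). Stmn2 (1.09, SE 1.003), Gsk3b (0.018, SE 0.38) and Cdk5r1 (-0.58, SE 0.86) had SEs of similar size to their values or larger. No member separated the genotypes without overlap, as 2.14% of genes did. The median over the 9 members was 0.58, beside 0.13 over all genes.

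Cell type markers were compared between the same astrocyte libraries. Of the 12 astrocyte markers 1 was called between the genotypes: Gfap, the filament gene whose protein was used for the sort, had mean levels of 202 CPM in non-Tg and 953 in P301S astrocytes without overlap, a log2 change of 2.22 (SE 0.30, edgeR adjusted p = 5.12e-04). Its part in the members' values was not tested. Summed oligodendrocyte markers (9 genes, 0 of 7 tested called) were 202 to 532 CPM in non-Tg and 388 to 1302 in P301S astrocytes, and summed neuron markers (14 genes, 0 of 13 called) were 209.6 to 365 and 243 to 736. Microglial and myeloid markers (9 genes, 0 of 6 called) summed to 59.2 to 126 and 109 to 238. The mean log2 CPM of the oligodendrocyte markers and that of the microglial and myeloid markers, not their sums, were used as covariates. With both in the model, the changes were 0.99 (SE 0.63) for Mapt, 0.54 for Map1a and -0.0016 for Map4. With the number of detected genes in the model they were 0.89 (SE 0.57), 0.35 and -0.079, and Map1b was 0.055. Without P301S astrocytes 3 and 4, chosen after seeing the data, Mapt was 0.86 (adjusted p = 0.295) and Map4 -0.0021. When the spread was shared with the neuron libraries in 1 fit, Mapt (1.02, adjusted p = 0.0341), Map1a (0.76, adjusted p = 0.0405) and Map6 (1.43, adjusted p = 0.0441) passed the threshold, as did 1682 genes in place of 66.

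**Figure D4:**
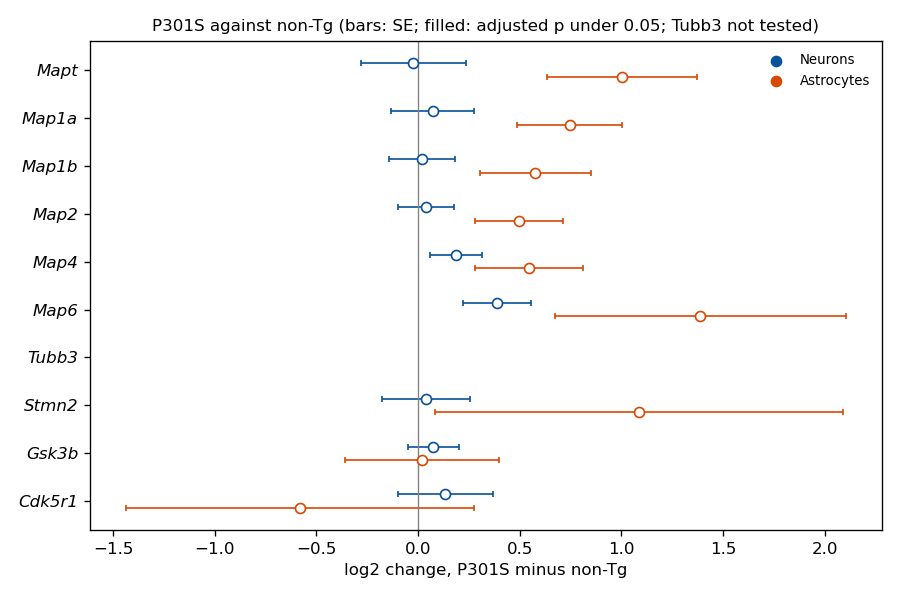
Log2 change of each member, P301S minus non-Tg, in neurons (blue) and astrocytes (orange), with SE; open points did not pass an adjusted p of 0.05, and Tubb3 was not tested. Neuron values lie between -0.023 (Mapt) and 0.39 (Map6), and astrocyte values between -0.58 (Cdk5r1) and 1.39 (Map6).

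Whether the genotype change differed between the cell types was tested as the astrocyte change minus the neuron change. None of the 10 members passed in edgeR, DESeq2 or limma voom, and 0.394% of 14197 genes were called in edgeR. An unadjusted edgeR p under 0.05 was found for 2 members (Mapt and Map1a) and for 2106 of all genes. The differences were 1.02 (SE 0.43, edgeR adjusted p = 0.248) for Mapt and 0.67 (SE 0.33, edgeR adjusted p = 0.336) for Map1a. Map6 stood at 1.03 (SE 0.62, edgeR adjusted p = 0.455), and without non-Tg astrocyte 4 it passed the threshold (2.29, SE 0.41, adjusted p = 0.00756). The other 7 ran from -0.70 (Cdk5r1) to 1.04 (Stmn2).

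**Figure D5:**
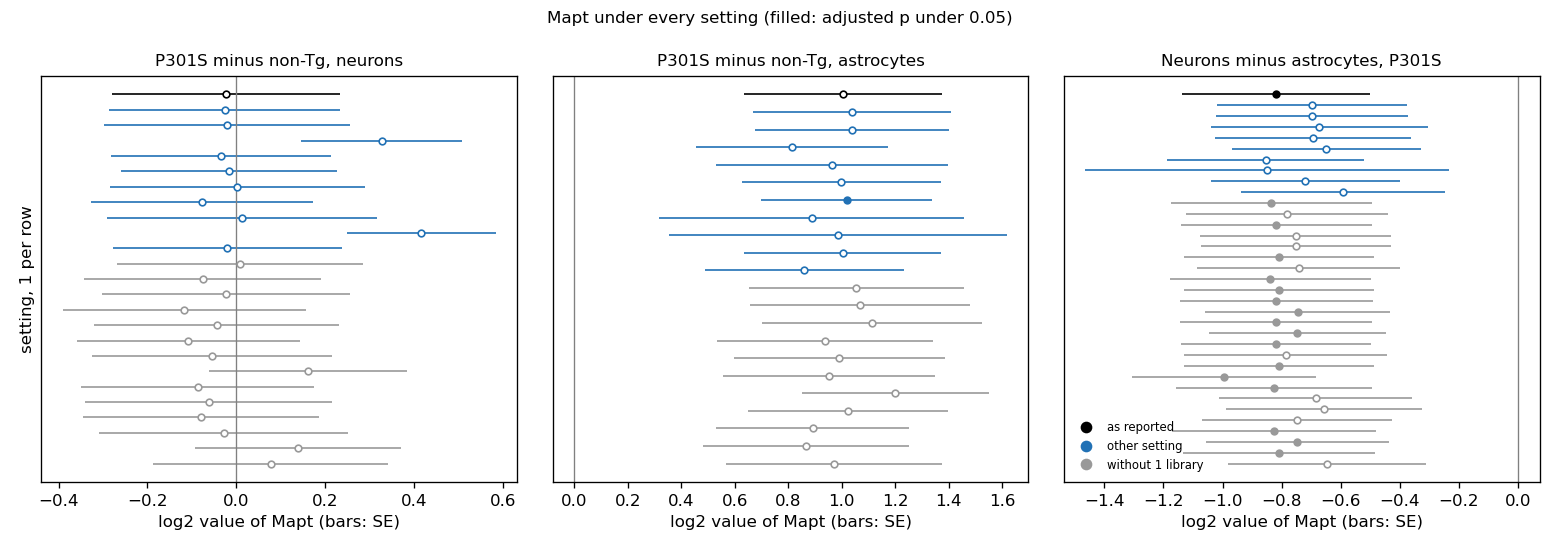
Log2 value of Mapt with SE in 3 comparisons, as reported (black), under each other setting (blue) and without each library in turn (grey); filled points passed an adjusted p of 0.05. The neuron change lies around 0 and reaches 0.42 without 2 non-Tg libraries, the astrocyte change lies between 0.82 and 1.20, and the P301S difference between cell types stays below 0 while its call comes and goes.

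The wider machinery was read from 7 lists holding 107 genes besides the members. Between genotypes 0 of the 91 tested in neurons and 0 of the 93 tested in astrocytes were called by edgeR. At an unadjusted edgeR p under 0.05 there were 3 and 10, beside 846 of all 10951 and 1629 of all 12130 genes. No other tool was run on these lists. Between cell types, 26 of 99 were called higher and 16 lower in non-Tg neurons, beside 21.8% and 25.1% of all genes. In P301S neurons 23 were higher and 20 lower, beside 23.2% and 29%. The counts of each list below are to be read against the same shares.

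The list of tau kinases, which includes the Cdk5 activator gene Cdk5r2, had 8 of 27 genes called higher in neurons in non-Tg mice. It had 4 called lower, and its median was 0.019. Among those higher were the calcium-dependent kinase genes Camk2b, at 4.45 (SE 0.40), and Camk2a, at 2.22 (SE 0.29), and the stress kinase gene Mapk14, at 1.003 (SE 0.27). Gsk3a, the paralog of Gsk3b, was lower at -1.09 (SE 0.41), as were the tyrosine kinase genes Abl1 (-0.95) and Fyn (-0.76). In P301S mice the counts were again 8 and 4, with Camk2b at 3.64 (SE 0.42), Camk2a at 1.50 (SE 0.31) and Mapk14 at 1.25 (SE 0.30), and with Gsk3a (-1.50), Mark2 (-1.14) and Fyn (-0.97) among the 4 lower. Of 16 genes of phosphatases, their subunits and their modifying enzymes, 4 were higher and 0 lower in each genotype. They included the calcineurin genes Ppp3ca (2.18 in non-Tg, 2.04 in P301S) and Ppp3cb (0.96 and 2.06). Ppp3r1, the calcineurin regulatory subunit, was called at 1.28 (SE 0.39) in non-Tg mice and Ppp2r2c, a PP2A regulatory subunit, at 2.55 (SE 0.63) in P301S mice.

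Other microtubule-associated and plus-end proteins were called higher for 7 of 22 tested and lower for 5 in non-Tg neurons, and for 5 and 6 in P301S neurons, against the shares of all genes (21.8% and 25.1%, and 23.2% and 29%). Dcx, the doublecortin of migrating and young neurons, was the highest of those named (3.61 (SE 0.52) in non-Tg, 4.29 (SE 0.61) in P301S), followed by Map7, a kinesin-1 partner (1.90 and 1.49). Tppp was called at 1.62 in non-Tg mice and Map9 at 1.14 in P301S mice. Ckap5, a microtubule polymerase (-0.96 and -0.95), Dclk1 (-0.84 and -0.53) and Clasp1 (-0.87 and -1.62) were lower in neurons of both genotypes.

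Of 8 other tubulin genes tested, Tubg2, a gamma-tubulin, was called higher in non-Tg neurons (2.55 (SE 0.89)) and Tubb2b lower (-2.92 (SE 0.48)). In P301S mice 0 were higher and 4 lower, among them Tubb2b (-2.51 (SE 0.53)), Tubb2a (-1.72 (SE 0.44)) and Tuba1a (-1.41 (SE 0.50)). Near-identical tubulin genes share reads, and unique alignment may split them, so single tubulin values are uncertain. Of the 2 other stathmins tested, Stmn3 was called higher in non-Tg neurons (2.29 (SE 0.81)) and Stmn4 in P301S neurons (2.78 (SE 0.63)).

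Of 14 severing and tubulin-modifying enzyme genes, 3 were higher and 2 lower in non-Tg neurons, and 4 higher and 2 lower in P301S neurons. The higher ones included Agtpbp1, a deglutamylase (1.68 (SE 0.20) in non-Tg, 1.98 (SE 0.23) in P301S), and Ttll7, a polyglutamylase (2.08 and 2.04), and Agbl4 (2.17 and 2.92); the tubulin acetyltransferase gene Atat1 was lower (-1.23 and -1.49), as was Fign in non-Tg mice (-2.37). Among 10 genes of tau binding, turnover and glycosylation, 2 were higher and 4 lower in non-Tg neurons and 1 higher and 4 lower in P301S neurons. Bin1, a genetic risk gene of Alzheimer's disease, was higher at 1.87 (SE 0.43) in non-Tg mice, and Oga, which removes O-GlcNAc from proteins including tau, was higher at 0.51 and 0.71. Bag3, a co-chaperone of selective autophagy, was lower at -4.74 (SE 0.49) and -5.08 (SE 0.53), Lrp1, a receptor that takes up tau, at -1.67 and -2.40, and the ubiquitin ligase gene Stub1 at -1.72 and -2.30.

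Genes whose profile lay nearest to Mapt were ranked by the root-mean-square difference of log2 CPM, each gene centred on its own mean. Over the 25 libraries the 5 nearest were Rai1 (0.31), Bms1 (0.32), Kctd3 (0.40), Fnbp4 (0.41) and Wdr13 (0.42), against a median of 1.20 over all genes. Over the 14 neuron libraries they were Srf (0.23), Brinp3 (0.25), Gm33977 (0.25), Pi4kb (0.26) and Ankrd27 (0.27), against a median of 0.63. No other member was among either set, and the 2 sets shared no gene.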

How the data were processed

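RNA from sorted neurons and astrocytes was sequenced in 25 libraries, grouped by the genotype and cell type in the labels. Each file holds a count per Entrez gene, deposited by the authors as reads uniquely aligned to a gene model, per the file headers. A second column holds RPKM scaled by the authors with size factors (nRPKM), per the file headers, used here only to compare genes. GSNAP and GRCm38 are named in the submitters' processing notes; their versions are not stated there. Of 36528 identifiers, 5479 had no RefSeq symbol (3.30% of counts) and stayed in the tests.

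Counts were tested in edgeR 4.0.16 (R 4.3.3) by quasi-likelihood F tests (TMM, filterByExpr, robust fit), with Benjamini-Hochberg adjustment over all genes tested and calls at an adjusted p under 0.05. Genotype was fitted within each cell type. Neurons against astrocytes, and the difference of the genotype changes, came from 1 fit of all 25 libraries. SE is the log2 value divided by the square root of F. DESeq2 1.42.0, limma 3.58.1 voom, other scaling and filters, covariates, and omission of single libraries were alternatives. The procedure was also run on simulated counts, with large changes placed only in genes above a count limit. That run does not cover smaller changes or genes near the floor, and its outcome is not given here. The members and lists were chosen with earlier results of these data known. The members were named in every comparison, and up to 3 genes per direction with the smallest p among those called were named from each list; 1 of these is not reported here. The marker lists also included 6 oligodendrocyte precursor, 5 endothelial and 6 mural and fibroblast genes, whose sums in P301S and non-Tg astrocytes overlapped (4.53 to 152 and 8.46 to 23.4, 0.747 to 25.4 and 0.583 to 23.1, and 104 to 214 and 90.7 to 225 CPM).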

Additional observations from a re-analysis of the deposited data

Results flagged for a closer look

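Each gene and group was checked for a single library far from the rest, by Dixon's gap test at the 95% level. Of 40 gene and group sets 7 stood out, and chance gives about 1 in 20. Map1a reached 546 CPM in non-Tg neuron 8, against 334 in the next library, and Gsk3b was lowest in the same library at 89.9 CPM; that library is 1 of the 2 with identifiers of another range. Map6 reached 46.8 CPM in non-Tg astrocyte 4, against 8.44 in the next. Cdk5r1 reached 13.8 CPM in P301S astrocyte 5, against 3.02 in the next. Tubb3 was highest at 10.04 CPM in non-Tg astrocyte 6, at 1.89 CPM in P301S astrocyte 2 and at 3.82 CPM in P301S neuron 2, in groups where most libraries held at most 3 counts.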

How the results depend on the processing

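No paired analysis was possible because replicate numbers were given in accession order and no label links a neuron, astrocyte, P301S or non-Tg library to another. Of the single-gene values, 390 kept their direction and side of the threshold under the other settings, 12 fell below it, 9 rose above it and 30 changed sign; leaving out single libraries gave 898, 11, 6 and 27. The number of members called between genotypes in neurons was 0 under every setting and omission tried. In astrocytes it was 1 higher in limma voom and 3 higher with all 25 libraries in 1 fit, and 0 in the other settings. Neurons against astrocytes in non-Tg mice gave 2 lower with only that genotype fitted. In P301S mice the count called higher fell from 4 to 3 in limma voom, with only that genotype fitted and with detected genes as a covariate, and ranged from 3 to 5 without single libraries. The count called lower there fell from 2 to 1 with median-ratio scaling, DESeq2, limma voom, no filter, a filter at 1 CPM, only that genotype fitted, detected genes as a covariate, Malat1 and mitochondrial genes removed, and P301S astrocytes 3 and 4 removed, and it ranged from 1 to 2 without single libraries. For the difference of the genotype changes, 0 to 1 members were called higher without single libraries. The cause of these changes was not tested.

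Values that changed sign lay mostly near 0. In neurons, P301S minus non-Tg, Mapt was 0.33 in limma voom, 0.00220 with all 25 libraries, 0.013 with marker covariates and 0.42 without the 2 libraries of another identifier range. Map1b was 0.021 as reported and -0.060 at the lowest of the other settings. With marker covariates Map1b was -0.042, and without those 2 libraries -0.043. Stmn2 was -0.022 with detected genes, Gsk3b -0.00515 without the 2 libraries and Cdk5r1 -0.092 with marker covariates. Without single libraries the neuron changes ran from -0.12 to 0.16 for Mapt, -0.014 to 0.28 for Map1a, -0.065 to 0.11 for Map1b, -0.051 to 0.098 for Map2 and -0.055 to 0.14 for Stmn2. In astrocytes Map4 was -0.079 with detected genes, -0.00158 with marker covariates and -0.00211 without P301S astrocytes 3 and 4. Gsk3b was -0.18 in limma voom, -0.024 without a filter, -0.35 with detected genes, -0.024 without P301S astrocytes 3 and 4, and -0.33 to 0.27 without single libraries; Cdk5r1 was 0.77 with marker covariates. Neurons minus astrocytes in non-Tg mice, Mapt was -0.12 in limma voom and -0.21 without the 2 libraries. In P301S mice Map1a was 0.11 with detected genes and 0.076 without P301S astrocytes 3 and 4, and Gsk3b 0.25 with detected genes. For the difference of the genotype changes, detected genes gave -0.035 for Map1b, -0.26 for Map4 and 0.17 for Tubb3; Map4 was -0.16 without P301S astrocytes 3 and 4. Gsk3b was 0.019 with median-ratio scaling and in DESeq2, 0.054 without the 2 libraries, and -0.42 to 0.20 without single libraries.

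Counts over all genes moved more: between genotypes in neurons 1 became 0 to 49 (49 in DESeq2), in astrocytes 66 became 0 (detected genes) to 1682 (all 25 libraries), in the difference of the changes 56 became 10 to 425, and between cell types in P301S mice 7420 became 3415 to 9586. Tubb3, and Stmn2, Map6 and Cdk5r1 in astrocytes, rest on few counts at this depth.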

Other observations

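Ratios of counts within a library need no scaling between libraries; the pairs below were chosen after the values were seen and are given without a test. Map2 counts per Map4 count, the 2 relatives of tau that led in astrocytes, were 5.73 to 8.03 in non-Tg neurons and 3.83 to 8.39 in P301S neurons, against 0.765 to 1.31 and 0.815 to 1.37 in non-Tg and P301S astrocytes. Map1b counts per Map1a count were 2.42 to 6.52 and 3.76 to 6.13 in the neuron groups and 0.696 to 1.53 and 0.708 to 1.32 in the astrocyte groups. Both ratios separated the cell types in every library and overlapped between genotypes. Mapt counts per Map2 count were 0.0334 to 0.116 in non-Tg neurons and 0.0288 to 0.0720 in P301S neurons. They were 0.0726 to 0.157 in non-Tg astrocytes and 0.0844 to 0.245 in P301S astrocytes. P301S neurons were below both astrocyte groups, and the other pairs of groups overlapped. Mapt counts per Map4 count went the other way, at 0.236 to 0.690 in non-Tg neurons and 0.241 to 0.480 in P301S neurons. In astrocytes they were 0.0710 to 0.146 in non-Tg and 0.0846 to 0.337 in P301S mice. Both neuron groups lay above non-Tg astrocytes, and P301S astrocytes overlapped all other groups. The direction of the Mapt ratio between cell types thus depended on the gene it was divided by. Cdk5r1 counts per Gsk3b count were 0.199 to 0.576 and 0.259 to 0.541 in the neuron groups, 0.0190 to 0.0437 in non-Tg astrocytes and 0.00152 to 0.319 in P301S astrocytes, where library 5 alone reached the neuronal range.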
